A study of Mus musculus with 34 samples.

Results

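The proteasome subunit and assembly genes were chosen by gene symbol, not by any measured value. Of 21938 protein-coding genes in GENCODE M21 (mouse genome mm10), 50 had a symbol that starts with Psm, a letter from a to g and a digit, and 48 remained once Psmb8 and Psmb9 were left out. Trimethylation of histone H3 lysine 4 (H3K4me3) was read at each gene as the mean signal within 1000 bp on both sides of the gene's 5′ end. A mean over the 4 libraries of at least 2 was taken as marked and entered the test between genotypes, and 42 of the 48 members (87.5%) reached it, against 9931 of all 21938 genes (45.3%).

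The libraries were made by CUT&RUN, in which an antibody directs a nuclease to a chromatin protein and the released DNA is sequenced. Villus cells were scraped from the normal-appearing small intestine of 2 wild-type C57BL/6J mice and of 2 ApcMin/+ mice (C57BL/6J-ApcMin/J), which carry in every cell a Min mutation in 1 copy of *Apc*, the gene of a brake on Wnt signaling. The labels give an age of 5 weeks for all 4 mice, while the design text of the series gives 5 to 6 weeks and the methods of the study 6 weeks. The other samples of the series were not analysed here. Each library is 1 mouse, and the tracks hold no allele information with which the genotype labels could be checked. In such bulk tissue, fewer cells that carry the mark and less mark per cell cannot be told apart.

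The signal is coverage scaled to 10000000 tags per library, so it compares the distribution of the mark within libraries and not its total amount. Depth ran from 1430000 tags in wild-type replicate 1 to 5470000 in ApcMin/+ replicate 2, and 1 fragment in a promoter window was worth a signal of 0.0914 in the deepest library and of 0.350 in the shallowest. ApcMin/+ replicate 1 stood apart, since 43.3% of its signal lay in 55851 enriched regions, against 11.9% to 22.6% in the other libraries. The regions were called on the mean of the 4 tracks, so this share is not independent of how they were called. At gene 5′ ends this library had a mean signal of 6.85, against 1.76 to 2.59 in the others. Of the epithelial marker genes, 10 of 11 were marked, with a summed signal of 38.2 to 69.0 in wild-type and 48.7 to 176 in ApcMin/+ libraries. None of 8 immune and 7 mesenchymal marker genes was marked, at summed signals of 5.21 to 5.48 and 3.83 to 3.84 in wild-type and 5.11 to 7.68 and 6.21 to 6.53 in ApcMin/+ libraries, and no marker gene was at 0 in all libraries.

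The proteasome is the protease that degrades proteins tagged with ubiquitin. Its 20S core is a stack of rings, with outer rings of alpha subunits that gate the entry and inner rings of beta subunits that hold the catalytic sites. The 19S cap recognizes and unfolds substrates, with ATPases that pull the chain in and non-ATPase subunits that bind and remove ubiquitin. In cells exposed to interferon, the catalytic beta subunits can be replaced by inducible ones, and the activators encoded by *Psme1* and *Psme2* can cap the core. H3K4me3 accumulates on the nucleosomes that flank active transcription start sites, and in vertebrates it is most often found over CpG-rich promoters.

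The genes of the constitutive particle were almost all marked. All 7 beta ring genes, all 6 ATPase genes and all 11 non-ATPase genes reached the minimum, together with 6 of 7 alpha ring genes. Their median signals among marked genes were 5.48, 6.78, 8.97 and 8.39. The median over the 42 marked members was 7.96, against 6.27 over the 9931 promoters tested, and 26 of the 42 lay above that median. Background, measured outside enriched regions and more than 5000 bp from any protein-coding start, was 0.200 to 0.324 in the 4 libraries. Olfactory receptor genes, which are silent in the intestine, had a median of 0.204, and none of 1093 was marked.

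**Figure D1:**
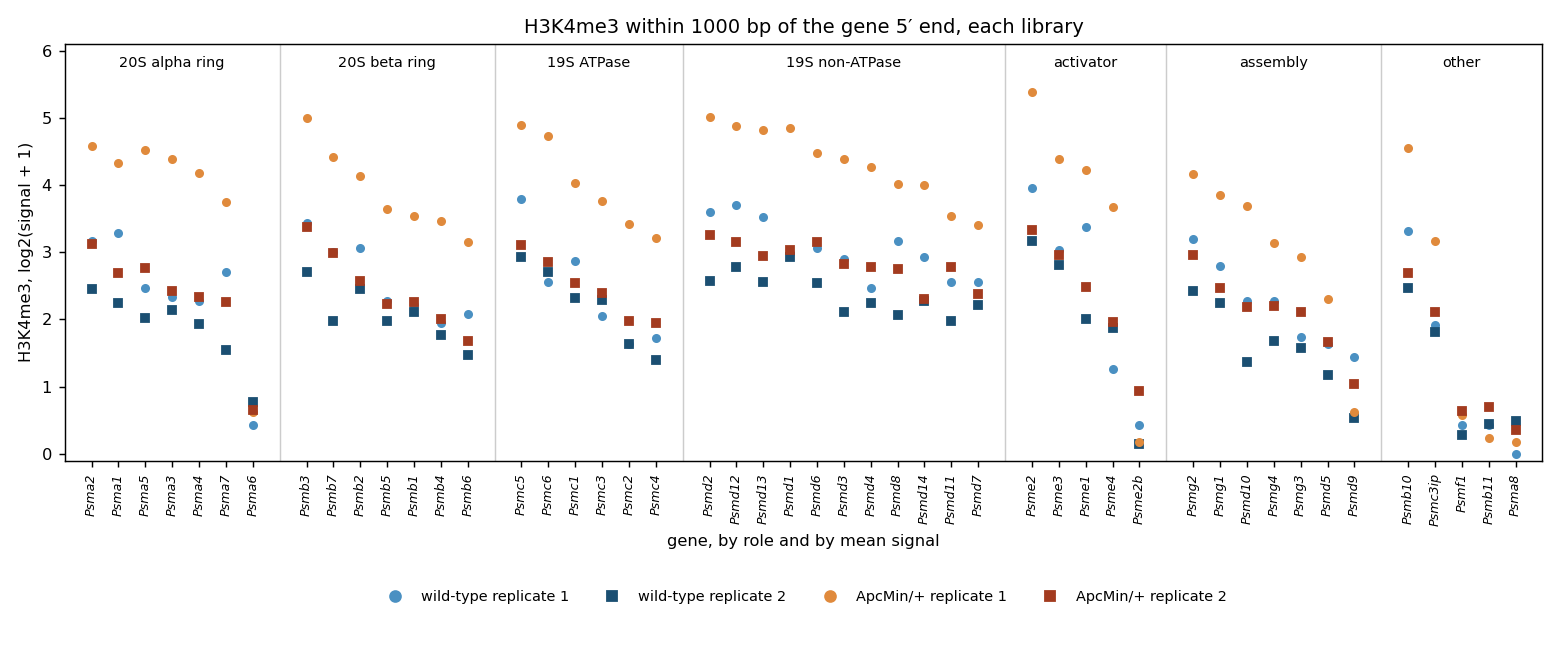
H3K4me3 within 1000 bp of the gene 5′ end, as log2(signal + 1), for each of the 48 genes in each of the 4 libraries, with genes ordered by role and by mean signal. ApcMin/+ replicate 1 (light orange circles) is the highest library at all 42 marked members, and the means of the 6 other members are at most 0.937, with single values of *Psmd9* up to 1.71 in signal.

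Among the 7 constitutive alpha ring genes, *Psma2* had the highest mean level. H3K4me3 at *Psma2* reached 8.02 in the first and 4.49 in the second wild-type replicate, and 23.1 and 7.67 in the corresponding ApcMin/+ replicates. *Psma6* had the lowest, at 0.349, 0.709, 0.540 and 0.575 in the same order, and its annotation is taken up below. The testis subunit gene *Psma8*, which stands in for *Psma7* in germ cells of the testis, was at 0, 0.399, 0.135 and 0.274. The 0 fragments in wild-type replicate 1 allow a signal of up to 1.05, at an upper limit of 3 fragments. Such limits cover counting error only.

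Among the 7 constitutive beta ring genes, *Psmb3* was the most marked and *Psmb6* the least. *Psmb3*, a structural subunit without catalytic activity, had 9.85 and 5.55 in the wild-type and 31.1 and 9.43 in the ApcMin/+ libraries. The catalytic subunits had means from 3.78 (*Psmb6*) to 9.34 (*Psmb7*), below the 13.98 of *Psmb3*. *Psmb7*, which carries the trypsin-like activity, had 7.06, 2.92, 20.4 and 6.94. *Psmb5*, the chymotrypsin-like subunit, had 3.84, 2.92, 11.5 and 3.68. *Psmb6*, the caspase-like subunit, had 3.24, 1.77, 7.88 and 2.21, that is 9, 17, 58 and 24 fragments. In each library *Psmb7* lay above or level with *Psmb5*, and *Psmb5* above *Psmb6*. *Psmb10*, the inducible counterpart of *Psmb7*, was as marked as its constitutive counterpart, with 8.99, 4.53, 22.4 and 5.46, and only in ApcMin/+ replicate 2 was it lower. The thymus-specific *Psmb11* was at 0.349, 0.354, 0.173 and 0.616, or 1 to 7 fragments, close to background, although its 5′ end lies only 3411 bp from that of *Psmb5*.

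In the 19S cap, *Psmc5* was highest and *Psmc4* lowest among the ATPases, with 12.9, 6.63, 28.7 and 7.59 against 2.30, 1.64, 8.25 and 2.84 in the same order of libraries. *Psmd2*, a large scaffold subunit at which ubiquitin-binding shuttles dock, led the non-ATPases with 11.2, 4.94, 31.3 and 8.58. *Psmd7*, the partner of the deubiquitinase, was the lowest non-ATPase with 4.88, 3.65, 9.61 and 4.20. *Psmd14*, the deubiquitinase itself, had 6.63, 3.85, 15.0 and 3.94. *Psmd7* lay above *Psmc4* in every library.

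The activators spanned both ends of the range. *Psme2* had the highest signal of all 48 genes, with 14.5, 7.94, 40.9 and 9.11, and it ranked 1, 1, 1 and 2 in the 4 libraries. Its start lies 595 bp from that of *Rnf31* on the other strand, so their windows overlap and the signal of the pair cannot be assigned to either gene. *Psme1*, its partner in the same activator ring, had 9.35, 3.01, 17.7 and 4.57, and *Psme4*, the large nuclear activator, had 1.39, 2.65, 11.7 and 2.89. *Psme2b*, an intronless near-copy of *Psme2*, was at 0.349, 0.105, 0.135 and 0.913. Reads of the copy and of *Psme2* can be hard to place uniquely, and reads of low mapping quality were removed by the authors, so this low level is uncertain.

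The assembly factors had a lower median than the ring and 19S groups, at 4.79 over 6 marked of 7 genes, but the ranges overlapped. *Psmb6* and *Psmc4*, at means of 3.78 and 3.76, lay below this median. In wild-type replicate 1 the medians of marked assembly and beta ring genes were level, at 3.84 each. *Psmg2*, a chaperone that pairs with *Psmg1* to build the alpha ring, was the highest with 8.20, 4.35, 17.0 and 6.81. *Psmd5* had 2.09, 1.25, 3.92 and 2.17, and *Psmd9* 1.71, 0.449, 0.540 and 1.05. The inhibitor gene *Psmf1* was at 0.349, 0.208, 0.489 and 0.548. The symbol rule also takes in *Psmc3ip*, which acts in meiotic recombination and is not a proteasome gene, and its signal was 2.79, 2.50, 7.97 and 3.31.

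The order of the members was similar in the 4 libraries. Spearman's rho over the 42 marked members ranged from 0.784 between the wild-type libraries to 0.900 between the ApcMin/+ libraries, as a description over genes that share library depth and scaling. The same coefficient over all 9931 promoters was 0.729 between the wild-type and 0.808 between the ApcMin/+ libraries. Among genes of similar level the order varied between mice. *Psmd2*, *Psmb3* and *Psmc5*, at means of 13.99, 13.98 and 13.96, took places 1 to 8 in single libraries. A marked member held 4 to 42 fragments in wild-type replicate 1 and 29 to 303 in ApcMin/+ replicate 1, so the order is least precise in the former.

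Of the 6 members below the minimum, 3 were marked at another annotated start. When each gene was read at its most marked protein-coding transcript start in place of its 5′ end, 45 of 48 members reached a mean of 2, against 10680 of 21938 genes (48.7%). This choice takes the highest of several windows, so it can only raise a level. For *Psma6*, an alpha ring subunit, the signal 14553 bp inside the gene was 8.09 and 5.67 in the wild-type and 27.8 and 7.07 in the ApcMin/+ libraries, in place of 0.349 to 0.709 at the 5′ end. For *Psmf1* the signal 2876 bp away was 3.60, 3.02, 10.0 and 4.58. For *Psmd9* the signal 58777 bp away was 2.79, 2.19, 6.53 and 3.18. *Psmd5* was marked at both, with a mean of 2.36 at the 5′ end and of 7.09 at 4006 bp from it. The RefSeq start nearest to the most marked start lay 50 bp from it for *Psma6* and 0 bp from it for *Psmf1*, *Psmd9* and *Psmd5*. Where a gene has several RefSeq starts, this choice depends on the signal, so the distance is no independent support for the start. The members not marked at any start were *Psma8*, *Psmb11* and *Psme2b*.

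**Figure D2:**
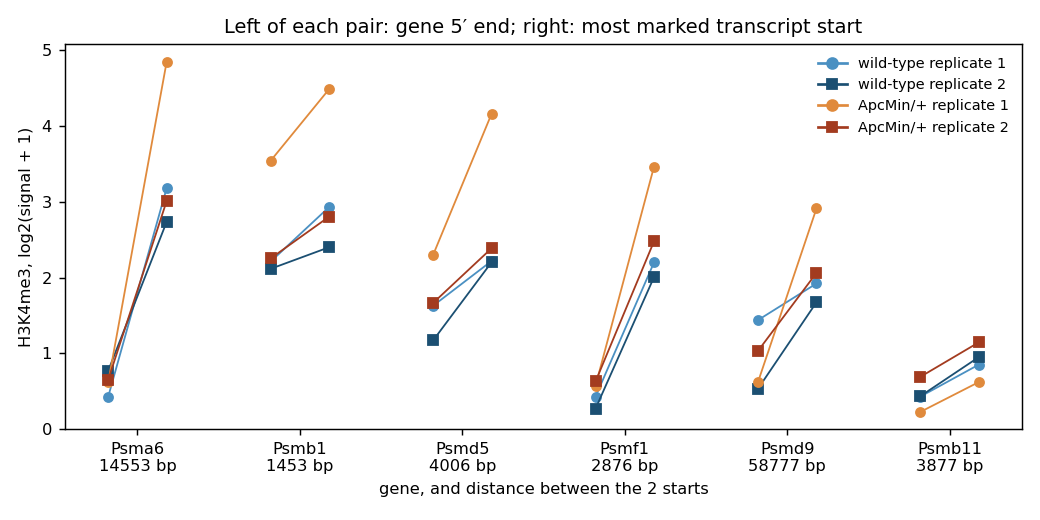
H3K4me3 as log2(signal + 1) in each library at the gene 5′ end (left of each pair) and at the most marked protein-coding transcript start (right) for the 6 members whose 2 starts lie more than 1000 bp apart, with that distance in bp. *Psma6*, *Psmf1* and *Psmd9* are higher at the second start in all 4 libraries, and *Psmb11* stays at a mean of 0.875.

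Around their most marked starts, the 45 marked members had a taller profile, with less signal farther downstream, than the 10680 promoters marked in this way. The mean signal of the members was highest 120 to 159 bp downstream of the start, at 16.4 and 10.1 in the wild-type and 41.4 and 13.2 in the ApcMin/+ libraries. The mean over all marked promoters was highest at 100 to 119 bp, at 10.5, 6.72, 26.9 and 8.68. From 1000 to 2000 bp downstream the order was the other way round, with 1.18, 0.938, 2.52 and 1.16 for the members and 1.45, 1.15, 4.99 and 1.56 for all promoters. Both relations held in each of the 4 libraries, as descriptions without a test. From 1000 to 2000 bp upstream the libraries did not all go the same way, with 0.916, 0.684, 1.70 and 0.785 for the members and 0.870, 0.771, 2.28 and 0.975 for all promoters. A dip lay just upstream of the start, where the signal of the members was 7.99, 4.13, 19.9 and 6.74.

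**Figure D3:**
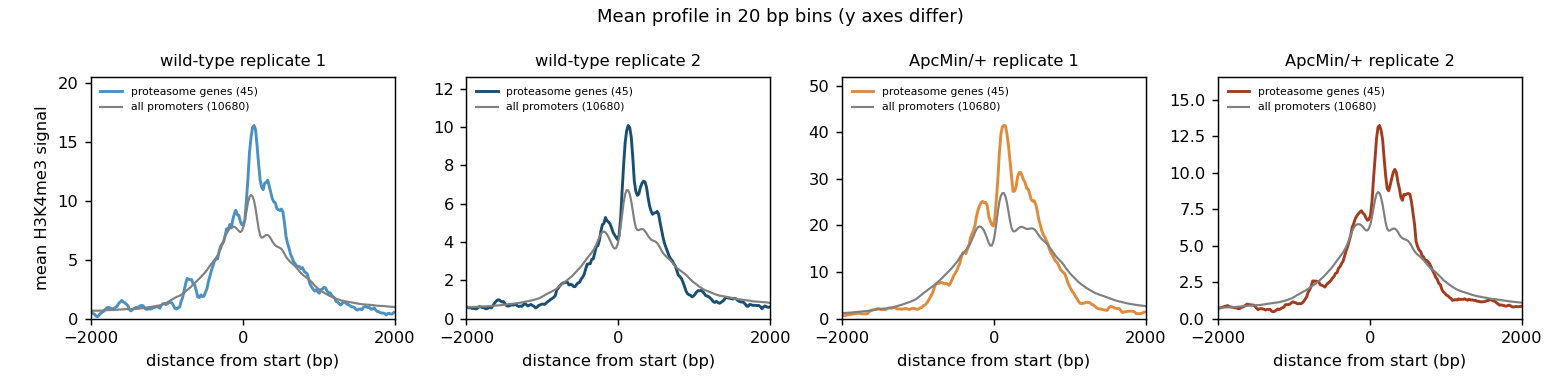
Mean H3K4me3 signal in 20 bp bins from 2000 bp upstream to 2000 bp downstream of the most marked transcript start, for 45 proteasome genes (colored) and 10680 promoters (grey), with 1 panel and its own y axis for each library. The colored line is higher around its maximum just downstream of the start and lower from 1000 bp downstream in all 4 panels.

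The marked stretches were also shorter. Stretches at or over 5 times the genome-wide mean that held the start had a median length of 1700 bp over 45 members, from 1100 bp at *Psmc3ip* to 3800 bp at *Psmb1*, against 2100 bp over 10401 promoters. No member had a stretch over 4000 bp, while 9.25% of those promoters had. Lengths and downstream shares were read on the mean of the 4 tracks and not by library. ApcMin/+ replicate 1 weighs most in that mean, with 6.85 at gene 5′ ends against 1.76 to 2.59 in the others. The stretch of *Psmb1* held both its gene 5′ end and its most marked start, 1453 bp apart. The start of *Tbp* lies 1590 bp from that most marked start, and the part of *Tbp* in this signal was not tested. Marker genes of enterocytes stood at the other end, with a median of 5500 bp over 10 stretches. In 36 of 45 members (80.0%) more of the signal lay downstream than upstream of the start, against 68.8% of all marked promoters. At 9 of the 45 members, another gene on the opposite strand started within 1000 bp of the most marked start. The same held at 19.9% of all marked promoters. The member pairs include *Psmc5* with *Ftsj3* and *Psma2* with *Mrpl32*, each 75 bp apart, and *Psmg2* with *Cep76*, 263 bp apart. As at *Psme2* and *Rnf31*, the signal of such a pair cannot be assigned to either gene.

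The promoter sequences of the members differed in their CpG content. RefSeq promoter sequences (assembly GRCm38.p6, 250 bases before to 50 after the start) matched 40 of the 48 members by symbol, chromosome and strand. Where a gene had several, that with its start nearest to the most marked start was taken. The CpG ratio, the number of CpG dinucleotides over that expected from the C and G content, had a median of 0.772 over these 40 members and 0.614 over 16538 promoters. The lowest were *Psme2b* (0.0904), *Psmb11* (0.165) and *Psmb10* (0.192). The RefSeq start of *Psmb11* lies 3877 bp from the 5′ end at which its signal was read above, and the mean signal around that RefSeq start was 0.875. The 150 bases before the RefSeq start are shown for *Psmb5* and *Psmd1* as marked constitutive genes, for *Psmb10* as the marked gene of lowest ratio, and for *Psmb11* and *Psme2b* as unmarked genes. They are written 5′ to 3′ on the strand of the gene, with each CpG in capitals. They lie at chr14:54617996-54618145 (minus strand), chr1:86064469-86064618 (plus), chr8:105938393-105938542 (minus), chr14:54625160-54625309 (plus) and chr11:48946411-48946560 (minus), and they hold 12, 9, 3, 2 and 1 CpGs.
Psmb5: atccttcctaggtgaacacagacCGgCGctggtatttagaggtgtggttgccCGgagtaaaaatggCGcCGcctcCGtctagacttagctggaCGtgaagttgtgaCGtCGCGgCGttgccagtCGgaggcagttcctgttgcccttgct
Psmd1: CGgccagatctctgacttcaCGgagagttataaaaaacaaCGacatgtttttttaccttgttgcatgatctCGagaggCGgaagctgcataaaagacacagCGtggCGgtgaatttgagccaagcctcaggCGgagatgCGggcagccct
Psmb10: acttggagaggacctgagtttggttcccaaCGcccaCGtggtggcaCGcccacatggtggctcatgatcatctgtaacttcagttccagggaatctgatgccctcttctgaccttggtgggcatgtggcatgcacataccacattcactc
Psmb11: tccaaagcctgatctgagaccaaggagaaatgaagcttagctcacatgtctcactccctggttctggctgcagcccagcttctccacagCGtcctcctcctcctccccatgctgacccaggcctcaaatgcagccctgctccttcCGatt
Psme2b: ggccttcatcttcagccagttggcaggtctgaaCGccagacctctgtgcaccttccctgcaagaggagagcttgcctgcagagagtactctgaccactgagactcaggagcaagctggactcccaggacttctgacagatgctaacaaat

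*Psmb10* was marked although the sequence before its start is poor in CpG, and 97.7% of its signal lay downstream of the start, with the highest bin at 420 bp. The CpG ratio was therefore also read from the genome in 300 bp centered on the highest bin of each marked member. It was 0.377 for *Psmb10*, 0.132 for *Psme1* and 0.482 for *Psme2*, the lowest 3 of the 45 members, and the next was *Psmc4* at 0.517. The median was 0.806 over the 45 members and 0.712 over 10680 promoters, and a ratio under 0.5 was found at 3 members (6.67%) and at 20.4% of these promoters. The 3 genes are the interferon-inducible members of the list. Of 8 genes fixed as markers of the interferon response, *Psmb8* and *Psmb9* among them, 5 had a ratio under 0.5 at their highest bin. A low ratio was not particular to such genes, since 9 of 11 enterocyte marker genes (81.8%) had one too. In the RefSeq promoter sequences *Psme1* (0.576) and *Psme2* (0.541) were not set apart, with *Psmd4* at 0.508 and *Psmd10* at 0.540. The limit of 0.5 was chosen after the values were seen, and no test was made.

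**Figure D4:**
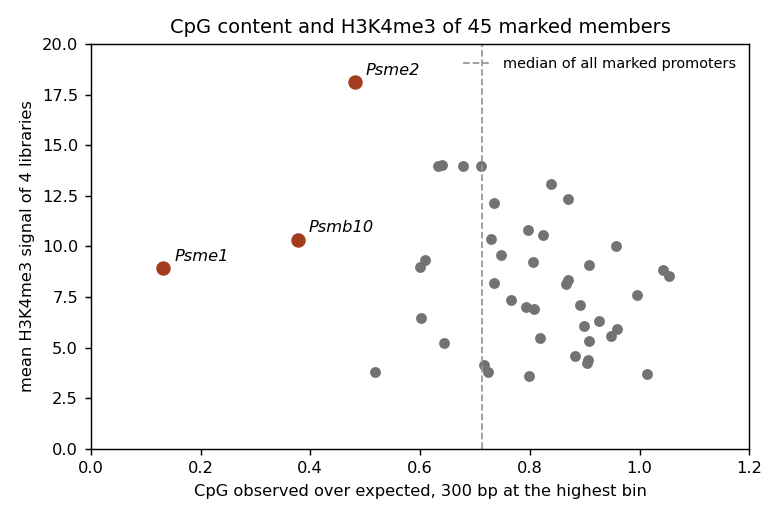
Mean H3K4me3 signal of the 4 libraries at the most marked start against the CpG ratio in 300 bp at the highest bin, for the 45 marked members, with the median ratio of all marked promoters (0.712) as a dashed line. *Psme1*, *Psmb10* and *Psme2* lie to the left of all other members, at mean signals of 8.94, 10.3 and 18.1.

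Motifs were sought on both strands of the same 300-base sequences. The antioxidant response element core TGACNNNGC, which binds the factors Nfe2l1 and Nfe2l2 that raise proteasome gene transcription under proteasome inhibition or oxidative stress, was present in 6 of 40 members (15.0%) and in 13.2% of 16538 promoters. It lay before the start on the strand of the gene in *Psmb5*, *Psmb6* and *Psmd9*, at bases -47 to -39, -9 to -1 and -31 to -23 from the RefSeq start. The 60 bases before the start are shown for these genes with the motif in capitals, at chr14:54617996-54618055 (minus strand), chr11:70525297-70525356 (plus) and chr5:123228130-123228189 (plus).
Psmb5: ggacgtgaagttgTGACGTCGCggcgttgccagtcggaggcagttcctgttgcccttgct
Psmb6: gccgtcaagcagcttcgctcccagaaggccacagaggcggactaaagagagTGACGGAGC
Psmd9: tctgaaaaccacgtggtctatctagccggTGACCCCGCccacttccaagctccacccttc
The *Psmd9* sequence is that of the marked start inside the gene and not that of its annotated 5′ end.

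The 8 letters CCGGAAGT, a motif of ETS family factors, were present in 9 of 40 members (22.5%) and in 5.67% of all promoters. The motif holds a CpG, and these shares are not matched for CpG content. A CpG ratio under 0.5 was found at 7.5% of the members and at 42.1% of all promoters. CCAAT was present in 13 members (32.5%), against 38.4% of all. GCATGCGC, part of the palindromic site of nuclear respiratory factor 1 (a factor other than Nfe2l1), was present in 3 of 40 members, against 3.77% of all. *Psma2* holds it at 4 places, 2 of which overlap on opposite strands, in the 200 bases before its start, at chr13:14613042-14613241 (plus strand), shown with the motif in capitals.
Psma2: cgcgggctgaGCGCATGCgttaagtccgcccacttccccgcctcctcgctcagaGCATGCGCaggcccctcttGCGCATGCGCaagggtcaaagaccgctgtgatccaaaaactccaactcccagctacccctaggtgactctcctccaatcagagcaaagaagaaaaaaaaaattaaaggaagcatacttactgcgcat
Matches to such short letters are descriptions of the sequence and no evidence that a factor was bound.

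Between genotypes, no member passed the test. In limma with Benjamini-Hochberg adjustment over 9931 promoters, 0 of 42 members and 0 promoters (0%) had an adjusted p under 0.05, while without adjustment 131 promoters and 0 members lay under 0.05. Among the members the adjusted p was at least 0.683. On the scale of log2(signal + 1), ApcMin/+ minus wild-type, the median difference was 0.85 over the 42 members and 0.85 over all promoters tested, and all 42 members and 99.2% of promoters had a difference above 0. Both ApcMin/+ libraries lay above both wild-type libraries at 17 of 42 members, where 38.5% of all promoters did so, and below them at 0 members, against 0.161% of all.

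The shift shared by members and other promoters followed 1 library. ApcMin/+ replicate 1 was the highest library at all 42 members and at 98.6% of promoters, and wild-type replicate 2 the lowest at 38 members. Without ApcMin/+ replicate 1 the median difference was 0.16 over members and 0.13 over all promoters, and 29 of 42 members were above 0. Without ApcMin/+ replicate 2, 21 of 42 members had an adjusted p under 0.05, all higher in the remaining ApcMin/+ library, and so had 65.2% of all promoters. The part that the larger share of signal in enriched regions of that library had in these values was not tested.

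Each library was therefore also centered on its median promoter, which removes what all promoters share. Then 12 promoters (0.121%) and 0 of 42 members had an adjusted p under 0.05 in limma, and 294 promoters and 0 members an unadjusted p under 0.05. The differences of the members ran from -0.35 to 0.55 with a median of -0.0049, against a median of -0.0082 over all promoters, and 21 members were above 0 and 21 below. Both ApcMin/+ libraries lay above both wild-type libraries at 10 members, against 13.1% of all promoters, and below them at 6 members, against 14.3%. The middle 50% of the members lay between -0.13 and 0.21, and that of all promoters between -0.20 and 0.18.

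**Figure D5:**
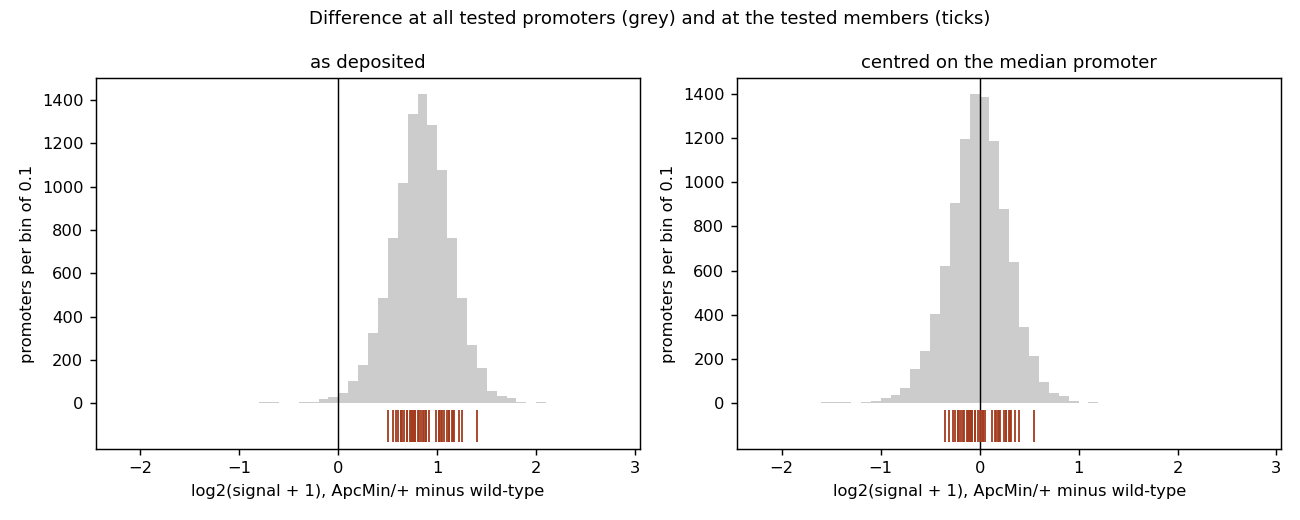
Number of promoters in each 0.1-wide bin of the difference in log2(signal + 1), ApcMin/+ minus wild-type, over 9931 promoters (grey), with each of the 42 tested members as a tick below the axis, for the signal as deposited (left) and with each library centered on its median promoter (right). The ticks lie within the bulk of the grey distribution in both panels, around 0.85 on the left and around 0 on the right.

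The largest differences among the members were those of *Psma5*, *Psme4* and *Psmb7*. *Psma5*, an alpha ring subunit, had 4.53 and 3.06 in the wild-type libraries (mean 3.80 ± 1.04, SD, n = 2) and 22.0 and 5.82 in the ApcMin/+ libraries (13.9 ± 11.5, SD, n = 2). Both ApcMin/+ libraries lay above both wild-type libraries, and the log2 difference of 1.40 ± 1.14 (SE) had an adjusted p of 0.683 (limma). After centering it was 0.55, again without overlap of the groups and the largest of the 42. *Psme4* differed by 1.25 ± 0.82 (SE) without overlap, from 2.02 ± 0.887 (SD, n = 2) to 7.31 ± 6.25 (SD, n = 2). After centering it was 0.40, with overlap of the groups. Wild-type replicate 1 held only 4 fragments at *Psme4*. *Psmb7* differed by 1.21 ± 1.19 (SE), with ApcMin/+ replicate 2 (6.94) below wild-type replicate 1 (7.06), and by 0.36 after centering, without overlap. The adjusted p of *Psme4* and *Psmb7* as deposited was 0.683 as well.

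The smallest differences were those of *Psmd7* (0.51 ± 1.01, SE), *Psmd14* (0.55 ± 1.11, SE) and *Psmd5* (0.58 ± 0.65, SE). *Psmd7* and *Psmd14* encode the partners of the deubiquitinase pair of the 19S lid, and after centering their differences were -0.35 and -0.31, with both ApcMin/+ libraries below both wild-type libraries at each. *Psmd5* was at -0.27 after centering, with overlap, and its 5′ end is not its most marked start. For *Psmb5* and *Psmb6* the differences were 0.81 ± 0.96 and 0.64 ± 0.78 (SE), and -0.042 and -0.22 after centering. By role, the centered median was highest in the alpha ring, at 0.24 with 5 of 6 genes above 0, and lowest in the inducible *Psmb10* and the assembly factors, at -0.13 each, and these differences between roles were not tested.

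The inducible members lay within the range of the other members in the comparison of genotypes. *Psmb10* differed by 0.73 ± 1.22 (SE), *Psme1* by 0.66 ± 1.16 and *Psme2* by 0.80 ± 1.24, and after centering these were -0.13, -0.19 and -0.050. None of the 3 had both ApcMin/+ libraries above both wild-type libraries, with or without centering. For the 8 markers of the interferon response, of which 7 were tested, the median difference was 1.26, or 0.41 after centering, and 1 had an unadjusted p under 0.05 and 0 an adjusted p under 0.05. The summed signal of these 8 genes was 39.0 and 29.7 in the wild-type and 143 and 43.1 in the ApcMin/+ libraries. *Psmc3ip*, which is outside the particle, differed by 0.77 ± 0.84 (SE), or -0.082 after centering.

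The genes that supply or regulate the proteasome outside the symbol rule gave similar values. Of 23 such genes, *Psmb8* and *Psmb9* included, with *Pomp* and *Akirin2* for assembly and nuclear import, *Nfe2l1* and *Nfe2l2* for transcription and *Uba1* for ubiquitin activation among them, 22 were marked, at a median of 7.86. None passed the test (0 with an unadjusted p under 0.05 in limma), their median difference was 0.92, and after centering it was 0.066 with 15 above 0 and 7 below. Other constitutive complexes were marked to a like extent. The median was 7.40 over 73 marked of 80 cytosolic ribosomal protein genes, 7.77 over 13 of 13 RNA polymerase II subunit genes and 8.90 over 35 of 36 NADH dehydrogenase subunit genes. Their median differences after centering were 0.17, -0.00585 and 0.19, and 0 genes of each list had an adjusted p under 0.05 in either fit, while 3, 1 and 1 had an unadjusted p under 0.05 after centering.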

How the data were processed

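H3K4me3 CUT&RUN libraries of villus cells from 2 wild-type and 2 ApcMin/+ mice were analysed, grouped by the genotype in their labels. The authors aligned read pairs to mm10 with Bowtie2, dropped duplicates (Picard) and reads of low mapping quality (samtools), and restricted fragments to 150 to 500 bp. The deposited values are signal, the per-base coverage written by HOMER. The authors normalized each track to 10000000 tags with a correction for fragment length, and neither subtracted a control nor pooled replicates. Such scaling sets the total of each library to the same value.

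Signal was averaged within 1000 bp of the 5′ end of each protein-coding gene of GENCODE M21. For promoters with a mean of at least 2, limma-trend (limma 3.58.1, R 4.3.3) was run on log2(signal + 1), that is a pseudocount of 1, with Benjamini-Hochberg adjustment over all promoters tested and a threshold of 0.05. The log2 differences understate the change of low promoters. Fragments were obtained from the track sum per tag. Bins of 100 bp in which the average track reached 5 times its genome-wide mean were merged across gaps of up to 500 bp, and merged stretches of 300 bp or more were taken as enriched regions. An exact test of 2 libraries against 2 cannot give a p below 0.333, so none was used. Depth was 1430000 and 4790000 tags in wild-type and 3700000 and 5470000 in ApcMin/+ replicates 1 and 2, where the median tested promoter held 13.0, 29.3, 97.6 and 45.7 fragments. The centered fit was run on simulated counts in which all libraries shared the same levels apart from planted changes. That check covers neither the higher signal of ApcMin/+ replicate 1 nor the fit without centering. Python 3.11.15, numpy 2.4.6, pandas 2.3.3 and matplotlib 3.10.9 were used.

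The members, the lists and the motifs were chosen with earlier results of these data known. Genes named with the value of each library were, by rule, the highest and lowest of each role, the 3 largest and 3 smallest differences, the catalytic beta subunits and the inducible, tissue-restricted and non-proteasomal members. *Psmd1*, the neighboring genes and the members read at other starts were named after their values were seen. The values of 1 gene of the list outside the symbol rule are not reported here. The alternatives were other scalings, pseudocounts, filters, windows and starts, a replicate block, and leaving out each library. The CpG ratio at the highest bin and the best transcript start with centering were added after the data were seen.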

Additional observations from a re-analysis of the deposited data

How the results depend on the processing

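No member passed the limma test under any setting but that without ApcMin/+ replicate 2. What changed with the processing was the shared shift. With each library centered on its median promoter, the median difference of the members went from 0.85 to -0.0049, both ApcMin/+ libraries lay above both wild-type libraries at 10 members in place of 17, and 12 promoters were called in place of 0. With quantile normalization these values were -0.0081, 8 and 2. With the most marked start and centering together, chosen after the data were seen, 5 members lay above without overlap and 11 promoters were called, and with a mean signal of at least 5 the members above were 10. Scaling to background, pseudocounts of 0.1 and 5, no filter and windows of 500 and 2000 bp kept the values of the members within the spread between libraries or within 1.5 times the count. Under these settings 0 promoters were called. Without the filter, the median difference over all genes was 0.35 in place of 0.85.

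Leaving out 1 library at a time, with and without centering, gave 0 to 6478 promoters and 0 to 21 members called, 14 to 42 members above without overlap and a median difference of 0.020 to 1.62. The ranges of the named members were 0.40 to 2.28 for *Psma5*, 0.064 to 1.93 for *Psmb7*, -0.13 to 2.11 for *Psme4*, -0.11 to 1.52 for *Psmb5*, -0.30 to 1.37 for *Psmb6*, -0.33 to 1.65 for *Psmb10*, -0.65 to 1.54 for *Psme1*, -0.35 to 1.83 for *Psme2*, -0.28 to 1.30 for *Psmc3ip*, -0.56 to 1.02 for *Psmd7*, -0.43 to 1.40 for *Psmd14* and -0.68 to 0.90 for *Psmd5*. A fit without 1 library leaves a genotype with a lone library, whose spread is taken from the other.

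The direction of some differences changed under 3 settings: centering, quantile normalization, and the most marked start with centering. *Psma5* (0.55, 0.52 and 0.51), *Psmb7* (0.36, 0.40 and 0.33) and *Psme4* (0.40, 0.32 and 0.59) stayed above 0 in all 3. The differences listed next were above 0 as deposited and below 0 in these settings, except that of *Psmd5* in the last. After centering they were -0.13 for *Psmb10*, -0.042 for *Psmb5*, -0.22 for *Psmb6*, -0.082 for *Psmc3ip*, -0.31 for *Psmd14*, -0.27 for *Psmd5*, -0.35 for *Psmd7*, -0.19 for *Psme1* and -0.050 for *Psme2*. With quantile normalization they were -0.15, -0.049, -0.17, -0.049, -0.33, -0.093, -0.32, -0.16 and -0.10 in the same order. With the most marked start and centering they were -0.16, -0.077, -0.27, -0.12, -0.34, -0.38, -0.20 and -0.085 for *Psmb10*, *Psmb5*, *Psmb6*, *Psmc3ip*, *Psmd14*, *Psmd7*, *Psme1* and *Psme2*. *Psmd5*, whose 5′ end is not its most marked start, was at 0.17 in that setting. Centering by construction takes off the shift that all promoters share.

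The replicate numbers pair no mice in the labels, and the deviations of same-numbered libraries correlated at 0.20 over 9931 promoters. With a replicate block 1 promoter was called in place of 0, and no member. With the replicate block and centering 15 promoters and no member were called, 10 members lay above without overlap, the median difference was -0.0049, and *Psmb10*, *Psmb5*, *Psmb6*, *Psmc3ip*, *Psmd14*, *Psmd5*, *Psmd7*, *Psme1* and *Psme2* stood at -0.13, -0.042, -0.22, -0.082, -0.31, -0.27, -0.35, -0.19 and -0.050.

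Depth limited wild-type replicate 1 most, with 4 to 42 fragments for each marked member. That no member was called does not show that the members did not differ.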
